A study of Homo sapiens with 18 samples.

Results

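Irradiated senescent fibroblasts, Sen (IR), were compared with proliferating fibroblasts, Prol, by RNA-seq. The comparison used the 6 libraries of those groups, 3 each, out of 18 libraries of the series, and covered the 16994 genes that passed a filter on low counts out of 57500 in the table. The libraries were chosen by their labels and no measured value entered the choice. All cells were IMR90, a line of human lung fibroblasts, and every group carried the same overexpressed transgene. Through this transgene the other groups of the study were cleared of mitochondria after CCCP, an uncoupler of the mitochondrial membrane. The Prol cells were not irradiated, and the Sen (IR) cells were irradiated and received no CCCP, acetate or mtDNA. The cells of one line stand for 1 genetic background, and the labels do not say whether the 3 libraries of a group came from separate cultures. The p-values thus measure the spread between libraries, which the fit estimated per gene from all 18 libraries of the series. The RNA was polyadenylated RNA.

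Cellular senescence is a lasting exit from the cell cycle that follows damage such as ionizing radiation. The damage activates p53, which induces the cyclin-dependent kinase inhibitor p21, the retinoblastoma family then holds the genes of replication and mitosis in repression, and p16 maintains the arrest. Senescent cells stay metabolically active, enlarge their lysosomal compartment, reorganize their nuclear lamina and chromatin, remodel the surrounding matrix and secrete inflammatory factors, the senescence-associated secretory phenotype (SASP). The secreted factors are kept brief here, and the remainder of the programme is described by function.

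Counts on genes ran from 28434566 to 46224280 per library. All 10 fibroblast markers were present, with a summed level of 14597 to 16523 TPM (transcripts scaled for gene length and library size) in Prol and 9031 to 10753 TPM in Sen (IR). Of 8 epithelial markers 7 stayed under 1 TPM in all 6 libraries, as did 6 of 6 endothelial markers, 6 of 8 immune markers and 3 of 6 markers of muscle and pericytes. Sen (IR) replicate 3 stood apart from the other 2: the chi-square statistic of its counts against theirs was 27.7 and 22.2 per degree of freedom, against 3.30 between replicates 1 and 2 and 2.78 to 7.75 between Prol libraries. Without it, 4505 genes were higher and 5068 lower, of which 4135 and 4751 were among those called with it. The values are shares of the RNA of a library, so fewer cells with a transcript and less of it per cell cannot be told apart.

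With the quasi-likelihood test of edgeR and an adjusted p of 0.05, 4539 genes (26.7% of those tested) were higher in Sen (IR) and 5089 (29.9%) were lower. Changes of at least 2-fold past that threshold were fewer, at 1247 genes higher (7.34%) and 968 lower (5.70%). Large changes leaned upwards: 219 genes were higher by at least 8-fold and 27 were lower by as much, while the median log2 fold change of all genes tested was -0.011. The quintile of genes with the lowest level held 152 of the 219 and 14 of the 27. Among genes with at least 10 counts in every library of the series, 478 were higher and 580 lower by 2-fold. That filter takes out genes with few counts in Prol or in the other groups, so these counts do not decide whether the lean holds. The genes with large rises started low. The median level of the genes higher by 2-fold was 0.471 TPM in Prol and 1.91 TPM in Sen (IR), and that of the genes lower by 2-fold was 5.92 TPM in Prol and 2.22 TPM in Sen (IR), against 10.3 TPM for all genes tested in both groups. Among the quintile of genes with the lowest level, 674 were higher and 270 lower by 2-fold, and in the quintile with the highest level the counts were 109 and 94. Of 13479 protein-coding genes, 28.9% were higher and 34.0% lower. Of 2254 long non-coding RNA genes, 20.8% were higher and 12.9% lower, and 273 were higher by 2-fold against 132 lower. Of the lists below, the counts for drivers of S phase entry, end joining, p53 targets, TGF-beta and BMP signalling, the WNT pathway, NF-kB, MHC class I, complement, fatty acid synthesis, the unfolded protein response, the BCL-2 family and channels lay near the shares of all genes, 26.7% higher and 29.9% lower, and are no result about those lists.

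**Figure D1:**
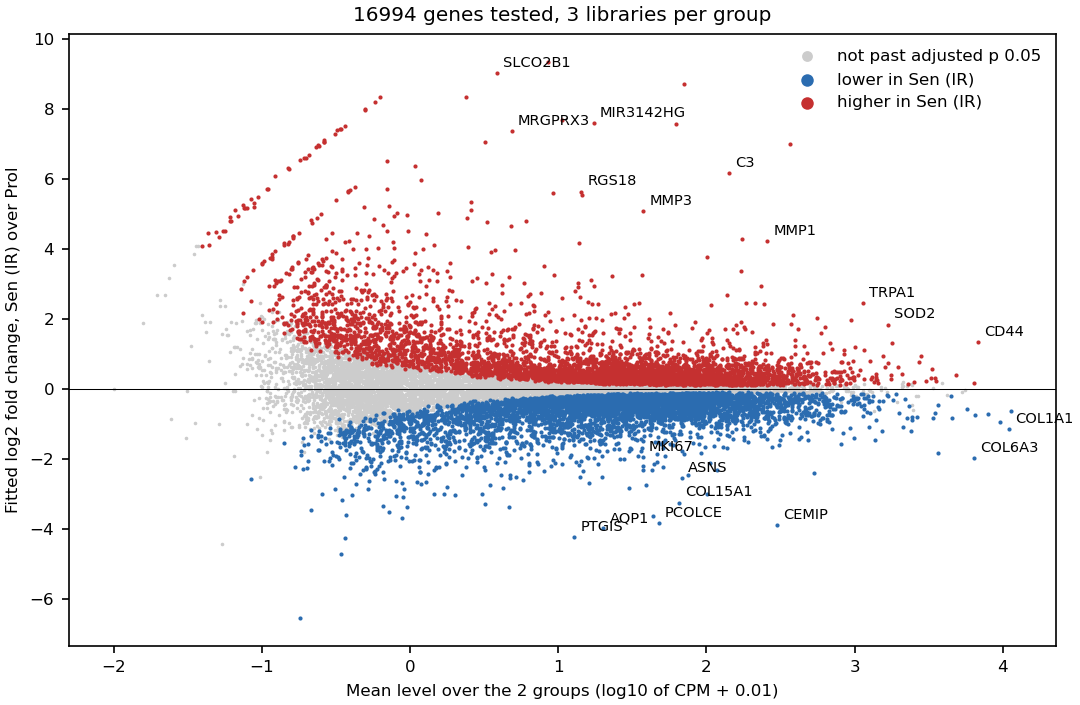
Fitted log2 fold change of Sen (IR) over Prol (y axis) against the mean level of the groups (x axis, log10 of CPM + 0.01, where CPM are counts scaled to library size), each point 1 of 16994 genes, coloured by the call at an adjusted p of 0.05. C3 and MMP3 stand high among the 4539 genes that were higher, and PTGIS, CEMIP and COL15A1 stand low among the 5089 that were lower.

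The abundant end of the transcriptome was also remodelled. In Prol the 100 most abundant genes held 25.8% ± 0.150 of all counts and in Sen (IR) 23.4% ± 0.685 (SD, n = 3), a difference of -2.39 percentage points with every Sen (IR) library below every Prol library (p = 0.1 in a two-sided exact permutation test, which cannot go lower with 3 libraries in each group). The largest losses in CPM (counts scaled to library size) were in COL1A1, COL6A3, IGFBP5, COL1A2 and COL12A1. Of these, COL6A3, a chain of the microfibrillar collagen VI, was at 10322, 10854 and 9488 CPM in the Prol libraries and 2609.8, 2484 and 2618 CPM in the Sen (IR) libraries, which put every Sen (IR) library 3.98-fold lower on average with no overlap. IGFBP5, a binding protein of insulin-like growth factors, was at 12577, 13018 and 12322 CPM in the Prol libraries and 6299, 6338 and 6834 CPM in the Sen (IR) libraries. Its levels did not overlap either. The largest gains in CPM were in CD44, SOD2, PLOD2, TRPA1 and STC2. CD44, the receptor of hyaluronan, was at 3854, 3887 and 3832 CPM in the Prol libraries and 10415, 10438 and 8354 CPM in the Sen (IR) libraries. Its Sen (IR) replicate 3 was the lowest of the 3 and still above all Prol libraries. TRPA1, a calcium-permeable channel opened by reactive electrophiles, was at 350.4, 353 and 357 CPM in the Prol libraries and 2061, 1986 and 1735 CPM in the Sen (IR) libraries, a 5.45-fold rise (log2 fold change 2.45 ± 0.081, standard error here and below; adjusted p = 2.87e-16, edgeR). SOD2, the mitochondrial superoxide dismutase, rose by 3.56-fold, PLOD2, which hydroxylates collagen lysines, by 1.93-fold and STC2, a secreted glycoprotein, by 2.47-fold.

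The brakes of the cell cycle did not move as a block. Of 10 cyclin-dependent kinase (CDK) inhibitors and retinoblastoma-family genes, 4 rose and 6 fell. CDKN1A, which encodes p21, was at 690.0, 725 and 679.7 CPM in the Prol libraries and 982, 1041 and 950.0 CPM in the Sen (IR) libraries. All Sen (IR) libraries were above all Prol libraries, by 1.42-fold. CDKN2A, which encodes p16 and ARF, rose by 1.51-fold from 4.35 ± 0.597 to 6.65 ± 0.662 CPM (SD, n = 3), and CDKN2B, which encodes p15, by 1.28-fold. The gene-level counts do not separate p16 from ARF. CDKN2C, which encodes p18, went the other way, at 6.02, 7.33 and 7.33 CPM in the Prol libraries and 1.85, 1.88 and 2.24 CPM in the Sen (IR) libraries, a log2 fold change of -1.80 ± 0.17. CDKN1B, which encodes p27, was lower by 1.68-fold, and the pocket proteins RB1 (-0.16), RBL1 (-0.44) and RBL2 (-0.49) were lower, with log2 fold changes in parentheses here and below.

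The genes that drive entry into S phase were mixed. Of 17 G1/S cyclins, CDKs and E2F factors, 7 rose, 6 fell and 4 did not pass the test. The D cyclins rose together: CCND1 (0.57), CCND2 (0.57) and CCND3 (0.53). CCND1 was at 2695, 2748 and 2639 CPM in the Prol libraries and 3369.7, 3558 and 5044 CPM in the Sen (IR) libraries, where Sen (IR) replicate 3 was well above the other 2 and all 3 were above Prol. CCNE1, cyclin E1, the partner of CDK2 at the G1/S boundary, was at 7.16, 7.33 and 8.68 CPM in the Prol libraries and 15.8, 17.6 and 15.6 CPM in the Sen (IR) libraries, about 2.097-fold higher with no overlap. CDK2 (-0.28), E2F2 (-1.35), E2F8 (-0.80) and MYBL2 (-1.33), a factor that acts with the MuvB complex on mitotic genes, fell.

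Replication genes fell moderately. Of 35 genes of origin licensing and the replication fork, 27 fell, 0 rose (1 without Prol replicate 1) and 8 did not pass, with a median log2 fold change of -0.48 (-0.011 over all genes tested). The largest falls were in POLA1, the catalytic subunit of the primase-polymerase, at 12.05, 13.99 and 14.7 CPM in the Prol libraries and 6.08, 7.14 and 7.199 CPM in the Sen (IR) libraries, and in CLSPN (-0.92), MCM10 (-0.91) and POLE2 (-0.89). The Prol and Sen (IR) levels of POLA1 did not overlap, and the fall stayed close to 2-fold. Subunits of the MCM helicase fell by less, with MCM2 (-0.41), MCM3 (-0.44), MCM6 (-0.37) and MCM7 (-0.48) past the threshold and MCM4 (-0.017) and MCM5 (-0.25) not. Of 8 nucleotide supply genes 7 fell, led by thymidine kinase, TK1 (-1.32), and thymidylate synthase, TYMS (-0.62).

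Mitosis genes fell further. Of 21 mitotic kinases, cyclins and regulators of the anaphase-promoting complex, 19 fell with a median log2 fold change of -1.09, and 13 of them by at least 2-fold. All 24 genes of the spindle, kinesins and cytokinesis fell (median -1.18). Of 20 centromere and kinetochore genes 16 fell (median -0.82), and of 14 condensin and cohesin genes 11 fell (median -0.68). ASPM, which holds microtubules at the spindle poles, was at 47.9, 43.98 and 41.1 CPM in the Prol libraries and 10.9, 9.63 and 12.4 CPM in the Sen (IR) libraries. CENPF, a kinetochore protein, was at 57.5, 51.2 and 56.1 CPM in the Prol libraries and 12.6, 13.8 and 17.1 CPM in the Sen (IR) libraries. Both fell by 4.03-fold and 3.81-fold, with every Sen (IR) library far below every Prol library.

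AURKB, the kinase of the chromosomal passenger complex, was at 7.04, 7.700 and 6.497 CPM in the Prol libraries and 1.95, 1.84 and 1.96 CPM in the Sen (IR) libraries, a log2 fold change of -1.87 ± 0.17 (adjusted p = 4.07e-09, edgeR). AURKA, its relative at the spindle poles, was the exception in the list, at 29.5, 28.5 and 28.1 CPM in the Prol libraries and 38.9, 40.98 and 35.5 CPM in the Sen (IR) libraries. The Sen (IR) levels of AURKA were higher by 1.34-fold and did not overlap those of Prol. MKI67, which coats mitotic chromosomes and marks cycling cells, was at 58.8, 60.2 and 58.3 CPM in the Prol libraries and 13.8, 14.4 and 17.8 CPM in the Sen (IR) libraries, and TOP2A, the topoisomerase that untangles sister chromatids, at 171, 171 and 169.8 CPM in the Prol libraries and 55.5, 56.4 and 52.4 CPM in the Sen (IR) libraries. None of these genes was at 0 in Sen (IR): MKI67 kept 4.77 TPM and TOP2A 33.9 TPM, against 17.4 and 99.9 TPM in Prol.

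**Figure D2:**
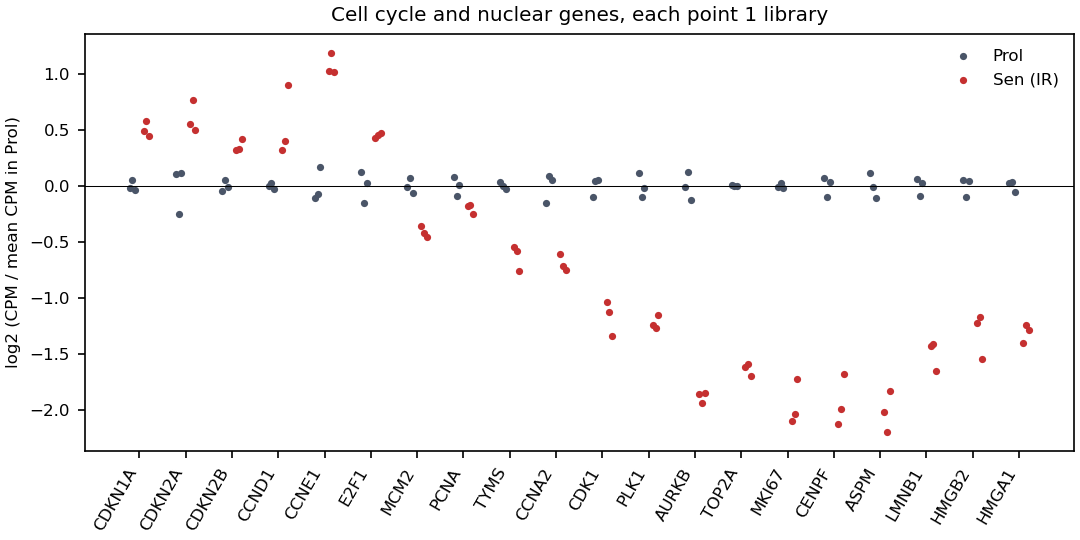
Level of 20 cell cycle and nuclear genes in each of the 6 libraries (y axis, log2 of CPM over the mean CPM in Prol), each point 1 library. The Sen (IR) points lie above Prol for CDKN1A, CCND1 and CCNE1 and far below it for AURKB, MKI67, CENPF, ASPM and LMNB1.

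The promoters of these groups differ in their letters. RefSeq windows from 250 bases before to 50 bases after the start (build GRCh38.p14) were matched to 11862 of the 16994 genes tested. The letters TTTGAA of the cell cycle genes homology region (CHR), searched on both strands, were in 10.2% of all windows, in 40 of 66 windows of the 4 mitosis lists (60.6%) and in 0 of 31 replication windows. Within the mitosis lists they were in 86.4% of the windows of spindle, kinesin and cytokinesis genes and in 43.8% of those of mitotic kinases and cyclins. The median log2 fold change was -1.13 for the 40 mitosis genes with the letters and -0.77 for the 26 without. The spindle list has both the lowest median of the 4 lists and the highest share with the letters. No split was made within a list, so the letters and list membership cannot be told apart. E2F letters (TTTGGCGC, TTTCCCGC, TTTGCCGC or TTTCGCGC, both strands) were in 5.16% of all windows, 54.8% of replication windows and 12.1% of mitosis windows. The letters CCAAT, which NF-Y binds, were in 36.3% of all windows, 58.1% of replication windows and 68.2% of mitosis windows. A match describes the letters and not a bound site.

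**Figure D3:**
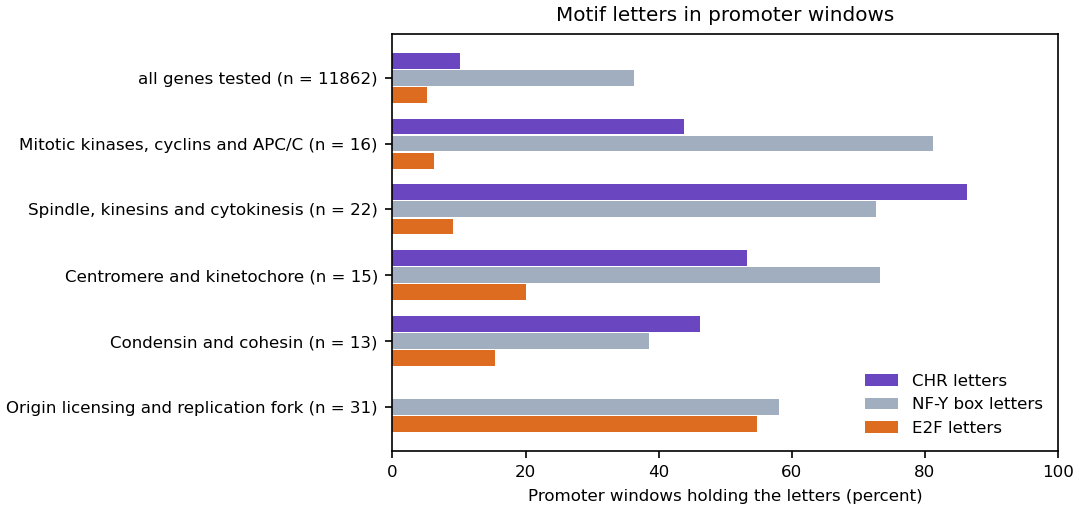
Percent of promoter windows that hold CHR, NF-Y box and E2F letters on either strand (x axis), for all genes tested and for the mitosis and replication lists (y axis, number of windows in parentheses). CHR letters reach 86.4% in spindle genes against 10.2% in all genes, and E2F letters reach 54.8% in replication genes against 5.16%.

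The 100 bases before the start of mitosis genes with CHR letters are shown for the centromeric histone CENPA (-1.74), the checkpoint kinase BUB1B (-1.37) and the kinesins KIF15 (-1.36), KIF4A (-1.35) and KIF11 (-1.30), where numbers in parentheses are log2 fold changes. Sequences run 5′ to 3′ along the gene, and capitals mark TTTGAA or its reverse complement. The windows, all in GRCh38.p14, are CENPA at chr2:26785956-26786055 on the + strand, BUB1B at chr15:40160969-40161068 on the + strand, KIF15 at chr3:44761694-44761793 on the + strand, KIF4A at chrX:70290004-70290103 on the + strand, KIF11 at chr10:92593030-92593129 on the + strand.
CENPA: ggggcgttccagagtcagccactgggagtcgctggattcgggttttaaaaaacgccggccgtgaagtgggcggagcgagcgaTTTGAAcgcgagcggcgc
BUB1B: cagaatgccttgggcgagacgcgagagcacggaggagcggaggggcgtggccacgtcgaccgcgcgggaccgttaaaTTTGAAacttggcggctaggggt
KIF15: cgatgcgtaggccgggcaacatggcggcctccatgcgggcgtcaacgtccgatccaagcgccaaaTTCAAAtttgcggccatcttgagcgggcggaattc
KIF4A: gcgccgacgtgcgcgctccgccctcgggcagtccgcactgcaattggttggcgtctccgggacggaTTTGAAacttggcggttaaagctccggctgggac
KIF11: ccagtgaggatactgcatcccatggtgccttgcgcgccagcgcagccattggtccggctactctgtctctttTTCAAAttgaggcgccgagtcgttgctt

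In these promoters the capitals lie 18 to 35 bases before the start. Only genes with the letters inside the printed bases are shown, so the range is limited by that choice. The mitosis genes ASPM (-2.01), CENPF (-1.93) and KIF14 (-1.83) fell further than the genes shown above. Their CHR letters began at -113, 41 and 2 relative to the start, where negative is before it. The replication genes POLA1 (-1.01), CLSPN (-0.92) and POLE2 (-0.89) fell further than those shown next. Their E2F letters began at -137, -5 and -5. E2F letters are shown in the same way for GINS2 (-0.68), a subunit of the replicative helicase, CDT1 (-0.67), which loads the helicase on origins, RFC3 (-0.58), a subunit of the clamp loader, and MCM7 (-0.48), a helicase subunit. Their windows are GINS2 at chr16:85688955-85689054 on the - strand, CDT1 at chr16:88803689-88803788 on the + strand, RFC3 at chr13:33818049-33818148 on the + strand, MCM7 at chr7:100101398-100101497 on the - strand.
GINS2: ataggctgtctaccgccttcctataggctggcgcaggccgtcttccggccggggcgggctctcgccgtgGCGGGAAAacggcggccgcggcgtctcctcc
CDT1: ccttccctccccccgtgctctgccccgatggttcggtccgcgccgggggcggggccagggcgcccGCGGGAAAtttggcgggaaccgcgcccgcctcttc
RFC3: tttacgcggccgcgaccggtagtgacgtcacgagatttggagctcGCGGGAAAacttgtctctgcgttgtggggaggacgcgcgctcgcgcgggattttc
MCM7: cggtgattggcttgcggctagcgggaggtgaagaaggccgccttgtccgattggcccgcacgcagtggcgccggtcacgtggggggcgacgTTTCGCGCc

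Genes of homologous recombination were mostly lower. Of 20 genes of homologous recombination and Fanconi anaemia, which act in S and G2 phase, 14 fell, with a median log2 fold change of -0.69. FANCD2, the ubiquitinated scaffold of crosslink repair, was at 9.35, 12.3 and 11.3 CPM in the Prol libraries and 4.08, 3.38 and 3.65 CPM in the Sen (IR) libraries, and BRCA2, a mediator of strand exchange, fell by 2.601-fold. The levels of FANCD2 and BRCA2 did not overlap between groups. BRCA1 had a log2 fold change of -0.090 and did not pass the test. FANCM, a translocase at stalled forks, rose (0.37). Of 11 end-joining genes 3 fell and 2 rose, near the 29.9% and 26.7% of all genes, and no test compared the pathways. Without Prol replicate 1 the number of end-joining genes that fell was 5, without Sen (IR) replicate 1 it was 2, and 1 rose without any one library other than Sen (IR) replicate 3. PRKDC, the DNA-dependent kinase, fell (-0.84), and LIG4, the ligase of the pathway, rose (0.34).

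Classical p53 targets moved in both directions. Of 25 targets 8 rose, 11 fell and 6 did not pass, with a median log2 fold change of -0.085. GDF15, a stress cytokine, was at 15.5, 16.96 and 13.6 CPM in the Prol libraries and 48.7, 50.5 and 39.2 CPM in the Sen (IR) libraries, the only target higher by 2-fold, and FAS (0.58) and TNFRSF10B (0.49), both death receptors, rose with CDKN1A. CCNG1, cyclin G1, fell (-0.53), as did ZMAT3 (-0.49), FDXR (-0.39), the repair gene DDB2 (-0.39) and the death effectors BAX (-0.37) and BBC3 (-0.54). MDM2, which degrades p53, rose by 0.20. Of 21 tested long non-coding RNAs of the DNA damage and growth response, 3 rose, 8 fell and 10 did not pass (median -0.14). Among the 3 that rose, PURPL, a p53-induced RNA, was higher by 2.29-fold, and NEAT1, the scaffold RNA of paraspeckles, by 2.02-fold.

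The nucleus changed on several fronts. Of 12 genes of the lamina and envelope 11 fell. LMNB1, lamin B1, was at 25.03, 22.6 and 24.5 CPM in the Prol libraries and 8.898, 9.02 and 7.65 CPM in the Sen (IR) libraries, with no overlap, and TMPO (-1.04), LBR (-0.99), SYNE1 (-0.95) and SYNE2 (-0.94), which tie chromatin or the cytoskeleton to the envelope, were also lower. LEMD3, an inner membrane protein that restrains SMAD signalling, rose (0.55). Of 16 high mobility group (HMG) and heterochromatin genes 14 fell and 0 rose, led by HMGB2 (-1.31) and HMGA1 (-1.31), which bend or coat DNA, and by UHRF1 (-0.93), EZH2 (-0.73) and DNMT1 (-0.72), which write or copy repressive marks. Of 14 histone chaperones and variants 9 fell, among them the subunit CHAF1B of the replication-coupled chaperone (-0.90).

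Transcripts of clustered histone genes went up while replication genes went down. Of 13 tested genes in the histone list 10 rose, all by at least 2-fold, and the median log2 fold change was 2.00. HIST1H4H, a histone H4 gene, was at 3.95, 5.44 and 4.03 CPM in the Prol libraries and 40.5, 39.03 and 45.6 CPM in the Sen (IR) libraries, a rise of 9.38-fold with no overlap. HIST1H1C, a linker histone, rose by 4.01-fold and HIST2H2BE by 5.34-fold. H1F0, a linker histone whose expression does not depend on replication, fell (-0.88). Most mRNAs of this class end in a stem-loop without a poly(A) tail, so polyadenylated RNA holds the part of them that carries one. Histone genes are near copies of each other, and the counts hold uniquely mapped reads.

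The matrix programme fell in synthesis and rose in part of its breakdown. Of 18 collagen chains 12 fell and 2 rose, with a median log2 fold change of -0.66, and without Sen (IR) replicate 3 the number that rose was 4. COL1A1, the main chain of collagen I, was at 14921, 16619 and 14022 CPM in the Prol libraries and 7229, 7304 and 5860.0 CPM in the Sen (IR) libraries, and fell by 2.23-fold with no overlap. COL15A1, a basement membrane collagen, fell furthest, at 116, 121 and 116 CPM in the Prol libraries and 14.2, 11.3 and 11.2 CPM in the Sen (IR) libraries. PCOLCE, which promotes the processing of procollagen, was at 89.8, 95.2 and 82.8 CPM in the Prol libraries and 5.87, 6.68 and 6.23 CPM in the Sen (IR) libraries, a fall of 14.3-fold. COL3A1 was at 1521 TPM in Prol and 1405 TPM in Sen (IR) and did not pass the test (-0.19). COL8A1, a short-chain network collagen, rose (0.88), as did COL10A1, the collagen of hypertrophic cartilage, from 0.209 ± 0.1505 to 1.16 ± 0.2400 CPM (SD, n = 3).

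Of 22 other matrix and crosslinking genes 16 fell and 2 rose. THBS2, thrombospondin-2, an inhibitor of angiogenesis, was at 179.8, 186 and 172 CPM in the Prol libraries and 23.2, 24.8 and 18.98 CPM in the Sen (IR) libraries, and the elastic fibre genes FBLN2 (-2.47), FBLN1 (-2.13), ELN (-1.60) and FBN2 (-1.25) and the proteoglycans DCN (-1.57), BGN (-1.49) and VCAN (-1.44) fell. FN1, fibronectin, fell by 1.79-fold, and LOX, the collagen crosslinking oxidase, rose (0.31). TNXB, which also rose (2.04), has a near-identical partial copy and stayed under 1 TPM, so its value is uncertain. CEMIP, which degrades hyaluronan, was at 561, 594 and 536 CPM in the Prol libraries and 39.6, 38.1 and 35.2 CPM in the Sen (IR) libraries, a fall of 14.96-fold. The groups of CEMIP and of THBS2 were far apart.

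Matrix metalloproteinases (MMPs) and their inhibitors moved in both directions, with 7 of 16 tested genes higher and 6 lower. The large rises lay in a run of neighbours on the minus strand of chromosome 11 in GENCODE's annotation of GRCh38: MMP10 (stromelysin-2, 102770502 to 102780628), MMP1 (interstitial collagenase, 102789401 to 102798160), MMP3 (stromelysin-1, 102835801 to 102843609) and MMP12 (macrophage elastase, 102862736 to 102874982). MMP1 was at 26.99, 25.8 and 26.5 CPM in the Prol libraries and 517, 526 and 424 CPM in the Sen (IR) libraries, and MMP3 at 2.19, 2.15 and 2.13 CPM in the Prol libraries and 73.8, 76.3 and 69.2 CPM in the Sen (IR) libraries. Their levels in Sen (IR) were 18.5-fold and 33.9-fold higher, and those of MMP10 and MMP12 27.4-fold and 16.5-fold higher. MMP13, the next in the run, had 0 counts in each Prol library and 2 to 6 in each Sen (IR) library. MMP15, a membrane-bound member, rose (2.29). MMP2, a gelatinase (-0.49), MMP11 (-2.62), and the inhibitors TIMP3 (-0.51) and TIMP4 (-1.25) fell, while TIMP1 rose (0.43). Of the 8 genes of this list with a promoter window, 0 held the AP-1 letters TGAGTCA on either strand (3.43% of all windows) and 1, MMP10, held TATAAA (6.27% of all windows). MMP1, MMP3 and MMP12 were not among the 8.

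Contractile genes fell without exception among those that passed. Of 18 contractile and myofibroblast genes 14 fell and 4 did not pass, with a median log2 fold change of -0.65. MYH10, non-muscle myosin IIB, was at 200.5, 206 and 189 CPM in the Prol libraries and 60.4, 58.1 and 68.3 CPM in the Sen (IR) libraries, and MYH9, its partner IIA, fell by 2.31-fold. The 2 groups of MYH10 did not overlap. Smooth muscle actin, ACTA2 (-0.91), and caldesmon, CALD1 (-0.83), were lower. Of 14 YAP and SRF targets 9 fell, among them the immediate-early genes EGR1 (-1.87) and FOS (-1.44) and the matricellular CYR61 (-0.63). FOSB (1.84) and ANKRD1 (0.78) rose.

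Of 22 genes of TGF-beta and BMP signalling 7 rose and 8 fell, near the 26.7% and 29.9% of all genes. GREM1, a secreted antagonist of bone morphogenetic proteins (BMPs), was at 222, 217 and 224 CPM in the Prol libraries and 881, 932 and 882 CPM in the Sen (IR) libraries. The 3 Sen (IR) libraries of GREM1 lay within a narrow range, 4.06-fold above Prol. BMP ligands rose, with BMP2 (0.87), BMP4 (0.70) and BMP6 (2.09), and the intracellular inhibitor SMAD6 fell (-1.40). TGFB1 (-0.59) and its receptor TGFBR1 (-0.59) fell while TGFBR2 rose (0.98).

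Of 20 WNT pathway genes 7 rose and 7 fell, also near the shares of all genes. The ligand WNT2 was at 27.9, 29.6 and 29.9 CPM in the Prol libraries and 9.27, 8.33 and 7.68 CPM in the Sen (IR) libraries, and WNT16 rose (1.77). The WNT antagonist DKK2 was at 4.73, 5.48 and 5.54 CPM in the Prol libraries and 28.97, 27.1 and 29.00 CPM in the Sen (IR) libraries, while DKK1 fell (-0.68). WNT2 and DKK2 thus moved in opposite directions, each with no overlap. IGF2, insulin-like growth factor 2, a fetal growth factor, was at 880.4, 909 and 891 CPM in the Prol libraries and 157, 169.5 and 177 CPM in the Sen (IR) libraries, a fall of 5.33-fold. Of 14 growth factor receptors 8 fell, among them PDGFRB (-1.21), MET (-0.75), IGF1R (-0.57) and PDGFRA (-0.53). FGFR1 (0.19) and KIT (0.60) rose. KDR and NTRK2 were also called higher at levels under 1 TPM in both groups.

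Secreted inflammatory factors, the centre of the SASP, rose in 30 of 33 tested genes and fell in 3: IL11 (-1.03), CXCL12 (-0.71) and VEGFA (-1.46). The list was drawn up from known SASP factors, so this direction is no independent result. Around it, C3, the central component of complement (ENSG00000125730, chr19:6677704-6730562, - strand in GENCODE's annotation of GRCh38), was at 3.79, 4.37 and 3.64 CPM in the Prol libraries and 294, 291 and 255 CPM in the Sen (IR) libraries. C3 rose by 71.6-fold (log2 fold change 6.16 ± 0.097, adjusted p = 1.88e-21, edgeR), with no overlap. CFB, the protease of the alternative pathway that acts on C3, rose (1.19), and C1R (-1.68), C7 (-1.04) and SERPING1 (-0.82), parts of the classical pathway, of the membrane attack complex and a pathway inhibitor, fell. In all, 5 of 16 complement genes rose and 7 fell.

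The interferon response rose in part of its genes. Of 32 interferon response genes 18 rose, 1 fell and 13 did not pass, with a median log2 fold change of 0.83. OAS2, an antiviral oligoadenylate synthetase, was at 8.37, 7.77 and 9.095 CPM in the Prol libraries and 33.7, 36.03 and 41.1 CPM in the Sen (IR) libraries, and RSAD2, viperin, at 0.704, 0.666 and 0.6497 CPM in the Prol libraries and 6.67, 6.600 and 6.13 CPM in the Sen (IR) libraries. Neither overlapped between groups, and MX1 (1.70), IFIT1 (1.73) and IFI6 (1.72) were higher. IFITM2 fell (-0.76), and IRF7 (0.084), IRF9 (0.22) and STAT2 (-0.15), the factors that transcribe the list, did not pass. The standard errors of these genes are wide (0.65 for RSAD2) although the 6 libraries were close, since the model takes 1 spread per gene from all 18 libraries. In a fit of the 6 libraries alone 23 members rose, and leaving out 1 library at a time in the fit of all libraries left 12 to 16.

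Of 14 NF-kB subunits and inhibitors 5 rose and 4 fell, near the 26.7% and 29.9% of all genes. NFKBIZ, a nuclear co-activator of the pathway, rose past 2-fold (1.05), with NFKB1 (-0.007), RELA (0.086) and RELB (-0.13) not past the threshold. Of 8 cytosolic DNA sensing genes 0 rose (1 without Sen (IR) replicate 3) and 3 fell, among them TMEM173, which encodes STING (-0.48), and IFI16 (-0.48). CGAS, the sensor itself, had a log2 fold change of -0.22 and did not pass. Of 16 genes of MHC class I presentation 4 rose, 3 fell and 9 did not pass, shares no higher than those of all genes, and leaving out 1 library at a time gave 4 to 6 higher and 2 to 4 lower. The peptide transporters TAP1 (0.99) and TAP2 (0.96) and HLA-E (0.48) were among those that rose.

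Surface genes known from senescent cells mostly rose. Of 20 genes of the senescent cell surface and of ligands of natural killer (NK) cells, 15 rose and 2 fell. The list was drawn up around senescence, so this direction is no independent result. DPP4, a dipeptidase of the plasma membrane, was at 79.7, 74.04 and 76.6 CPM in the Prol libraries and 433, 422 and 379 CPM in the Sen (IR) libraries, and VCAM1, an adhesion molecule for leukocytes, at 55.6, 57.8 and 58.2 CPM in the Prol libraries and 345, 329 and 273 CPM in the Sen (IR) libraries. Both rose (by 5.36-fold and 5.52-fold) with no overlap. NKG2D ligands rose, with MICA (1.37), ULBP2 (1.60), ULBP1 (0.93) and ULBP3 (0.59), of which MICA has a close relative in MICB. PVR, a ligand of activating and inhibitory NK receptors, rose (1.27). CD274, which encodes the checkpoint ligand PD-L1, was at 82.3, 85.9 and 84.04 CPM in the Prol libraries and 34.2, 36.2 and 31.3 CPM in the Sen (IR) libraries. Its levels in Sen (IR) were 2.48-fold lower and all below Prol. The phagocytosis signal CD47 had a log2 fold change of -0.005 and did not pass.

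Genes of the lysosome rose broadly. All 16 genes of the vacuolar ATPase, the proton pump that acidifies lysosomes, rose, with log2 fold changes from 0.28 to 3.31 and a median of 0.65. ATP6V0B, a subunit of the membrane ring, was at 32.3, 30.8 and 29.8 CPM in the Prol libraries and 65.3, 64.8 and 52.5 CPM in the Sen (IR) libraries, with no overlap. ATP6V0D2, an isoform known from osteoclasts, was low, at 0.0928 ± 0.0497 CPM in Prol and 0.902 ± 0.1201 CPM in Sen (IR) (SD, n = 3). Of 30 lysosomal hydrolase and membrane genes 17 rose and 3 fell, and the number that fell was 6 without Sen (IR) replicate 2. CTSS, a cysteine protease, was at 8.57, 7.81 and 8.004 CPM in the Prol libraries and 32.8, 32.5 and 28.9 CPM in the Sen (IR) libraries, and MCOLN1, the lysosomal calcium channel, at 8.25, 8.33 and 8.99 CPM in the Prol libraries and 28.03, 28.5 and 22.4 CPM in the Sen (IR) libraries. Both were well separated. LGMN (1.19), FUCA1 (1.15) and NPC1 (0.91), the cholesterol exporter, also rose, and GUSB (-0.68) and CTSB (-0.35) fell.

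Of 18 autophagy genes and factors of lysosome biogenesis 11 rose and 6 fell. SQSTM1, the cargo receptor p62, was at 191, 202 and 188 CPM in the Prol libraries and 657, 662 and 598 CPM in the Sen (IR) libraries, a rise of 3.29-fold, with MAP1LC3B (0.82) and the factor MITF (0.80) higher and ULK1 (-0.51) lower. The letters TCACGTGA of the CLEAR element, at which TFEB and its relatives bind, were searched after the values were seen. They were in 2 of 10 vacuolar ATPase windows and 4 of 18 lysosomal windows, against 1.80% of all windows. The 4 lysosomal genes were MCOLN1 (1.62), LAMP1 (0.083), CTSA (-0.046) and GAA (-0.23), so the letters did not go with 1 direction there. The 100 bases before the start are shown for both pump genes that hold them, ATP6V1G1 (0.87) and ATP6V0D1 (0.64), with the element in capitals, ATP6V1G1 at chr9:114587669-114587768 on the + strand, ATP6V0D1 at chr16:67481158-67481257 on the - strand (GRCh38.p14).
ATP6V1G1: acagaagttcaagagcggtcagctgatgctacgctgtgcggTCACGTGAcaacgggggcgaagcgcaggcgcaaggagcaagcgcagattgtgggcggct
ATP6V0D1: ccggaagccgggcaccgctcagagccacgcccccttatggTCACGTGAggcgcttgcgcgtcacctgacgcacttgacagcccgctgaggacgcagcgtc

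Amino acid synthesis fell and oxidant defence rose. Of 10 genes of serine, one-carbon and asparagine synthesis 9 fell and 0 rose, with a median log2 fold change of -0.99. ASNS, asparagine synthetase, was at 113, 117 and 118 CPM in the Prol libraries and 21.2, 20.3 and 17.9 CPM in the Sen (IR) libraries, and PHGDH, the first enzyme of serine synthesis, at 59.8, 63.4 and 63.7 CPM in the Prol libraries and 12.9, 13.6 and 10.7 CPM in the Sen (IR) libraries. Both fell by a log2 fold change of -2.55 and -2.33 with no overlap. PSAT1 (-1.84), PSPH (-1.17), ALDH1L2 (-1.06) and MTHFD2 (-0.92), the following and mitochondrial steps, were lower. Of 17 genes of ATF4 and the unfolded protein response, a list that shares ASNS, 7 fell, with ATF4 (-0.61), TRIB3 (-1.13), CHAC1 (-1.32) and DDIT4 (-1.07) lower and ATF3 (1.23) and the chaperone DNAJB9 (1.07) higher. HSPA5 (0.019) and XBP1 (-0.051) did not pass.

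The letters TGATGNAA of the amino acid response element, where ATF4 binds, were also searched after the values were seen. They were in 2 of 7 windows of the serine and asparagine list and in 1.85% of all windows. The 100 bases before the start of ASNS at chr7:97872409-97872508 (- strand, GRCh38.p14) carry them 68 bases before the start, in capitals.
ASNS: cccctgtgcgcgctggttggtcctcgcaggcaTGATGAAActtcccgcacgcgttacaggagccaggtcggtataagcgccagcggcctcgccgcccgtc

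Of 19 genes of NRF2 and oxidant defence 15 rose and 3 fell, with a median log2 fold change of 0.93. NQO1, a quinone reductase, was at 49.9, 47.7 and 50.7 CPM in the Prol libraries and 163, 163 and 149 CPM in the Sen (IR) libraries, and HMOX1, heme oxygenase, at 2.503, 2.48 and 2.105 CPM in the Prol libraries and 7.700, 7.79 and 8.23 CPM in the Sen (IR) libraries. The groups were apart for both, with rises of 3.199-fold and 3.37-fold. Glutathione and thioredoxin genes rose, with SLC7A11 (1.33), TXNRD1 (1.31) and GCLM (1.04), while GCLC (-0.21) fell. AKR1C1 and AKR1C2 rose (1.75 and 0.95), but as near-identical paralogues they can share reads. The antioxidant response letters TGACNNNGC, searched after the values were seen, were in 2 of 14 windows of the list and in 15.2% of all windows.

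Central metabolism shifted by small steps. Of 18 genes that supply pyruvate, citrate and acetyl-CoA 9 rose and 3 fell, with MPC2 (0.64), PDHX (0.89) and ACLY (0.25) higher and pyruvate carboxylase, PC (-0.73), lower. SLC25A1, the mitochondrial citrate carrier, had a log2 fold change of -0.026 and citrate synthase, CS, of -0.016, and neither passed. PDK4, which inhibits pyruvate dehydrogenase, rose from 0.176 ± 0.0944 to 1.33 ± 0.219 CPM (SD, n = 3), and PDK1, its hypoxia-induced relative, fell (-0.72). Of 21 glycolysis genes 10 rose and 6 fell. HK2, hexokinase 2, which commits glucose to the pathway, was at 126, 130.4 and 132 CPM in the Prol libraries and 310.3, 308 and 278 CPM in the Sen (IR) libraries. It was the only glycolysis gene past 2-fold. The glucose transporter SLC2A3 fell (-0.72) and the lactate exporter SLC16A3 rose (0.60).

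Of 22 genes of cholesterol synthesis and uptake 10 rose and 3 fell, with IDI1, an isomerase of the pathway, higher by 0.87 on the log2 scale. Fatty acid genes went the other way at one point: SCD, the stearoyl-CoA desaturase, was at 462, 475 and 464 CPM in the Prol libraries and 156, 161 and 148 CPM in the Sen (IR) libraries, 3.02-fold lower with no overlap. Of 12 fatty acid genes 3 rose and 5 fell, with FASN at -0.12 and not past the threshold. CD36, a receptor for fatty acids and oxidized lipoproteins, was at 1.17, 0.814 and 1.79 CPM in the Prol libraries and 14.4, 15.9 and 14.2 CPM in the Sen (IR) libraries, a rise of 11.3-fold, and the lipid droplet coat PLIN2 rose (0.74).

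Genes of RNA and protein handling also separated. Of 20 ribosome biogenesis genes 12 rose and 1 fell (median 0.32), with NOP16 (0.77), RRS1 (0.77) and PES1 (0.59) higher and fibrillarin, FBL (-0.63), lower. Of 15 heat shock genes 11 rose and 0 fell, with the constitutive HSPA8 at 0.61. Of 20 splicing factors and hnRNPs 15 fell and 2 rose (median -0.27), with HNRNPA1 (-0.74), LSM2 (-0.65) and HNRNPD (-0.57) lowest. Survival genes were mixed. Of 14 tested genes of the BCL-2 family and survival 4 rose and 6 fell. BMF, a pro-death member, was at 19.9, 23.1 and 21.5 CPM in the Prol libraries and 4.84, 4.57 and 5.58 CPM in the Sen (IR) libraries, 4.31-fold lower, while BCL2 (-1.24) and BIRC5, survivin (-1.27), fell and BID (0.71) and BAK1 (0.38) rose. HRK was called higher but stayed under 1 TPM. Among 22 potassium and calcium channel genes, KCNJ2, an inward rectifier, was at 11.6, 9.996 and 10.99 CPM in the Prol libraries and 44.4, 46.7 and 42.5 CPM in the Sen (IR) libraries, and KCNK2, a mechanosensitive leak channel, fell (-2.03).

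**Figure D4:**
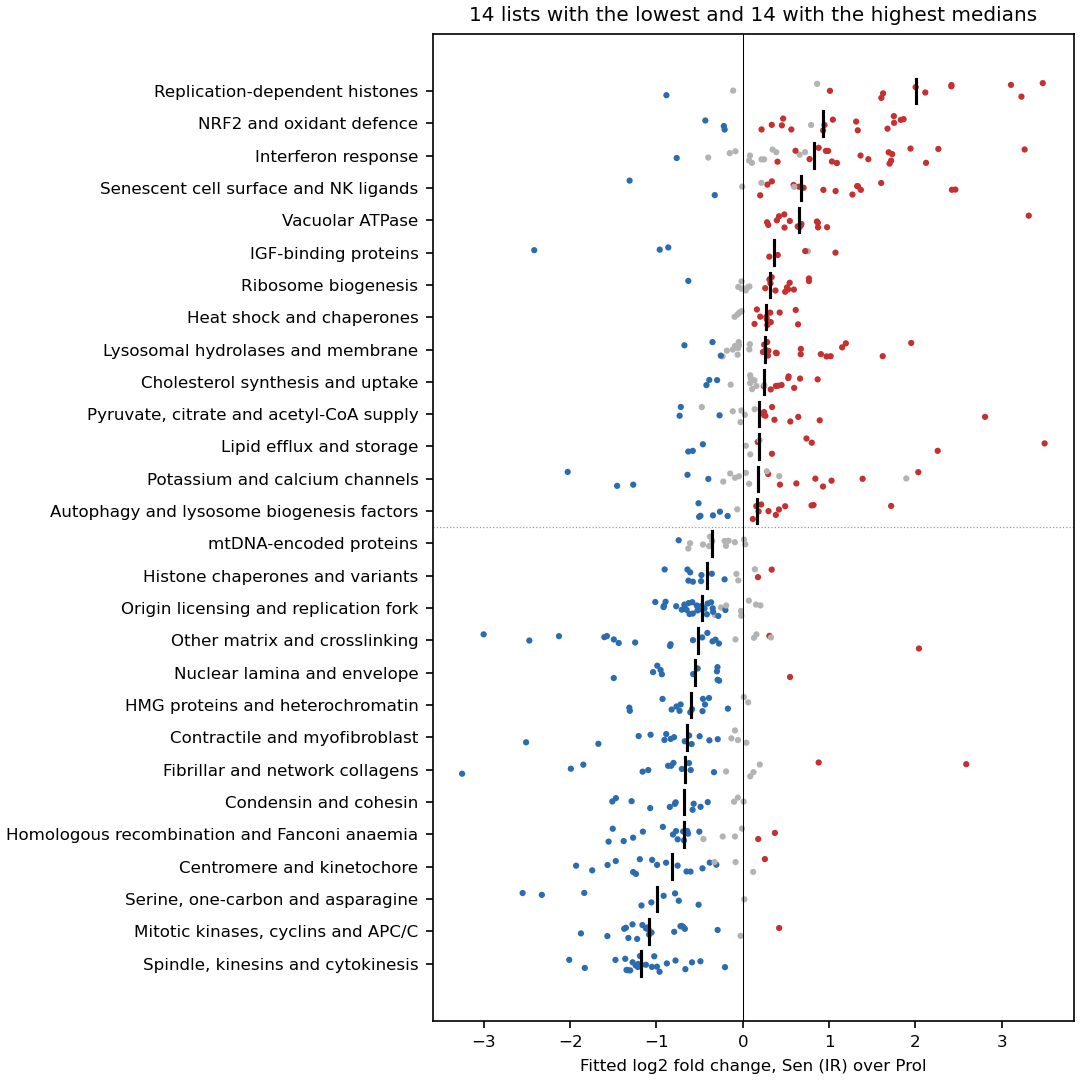
Fitted log2 fold change of Sen (IR) over Prol (x axis) for the members of the 14 lists with the lowest and the 14 with the highest medians (y axis), each point 1 gene, red higher, blue lower and grey not past an adjusted p of 0.05, with a bar at each list's median and secreted inflammatory factors left out. Spindle genes have the lowest median (-1.18) and histone genes the highest (2.00), and all 16 points of the vacuolar ATPase lie above 0.

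The largest changes outside the secreted factors were of other kinds. MIR3142HG, the host transcript of the microRNAs of its locus, was at 0.235, 0.222 and 0.104 CPM in the Prol libraries and 34.1, 32.4 and 37.3 CPM in the Sen (IR) libraries, and MRGPRX3, a receptor of the sensory neuron family, at 0.0391, 0.148 and 0 CPM in the Prol libraries and 10.6, 10.1 and 8.197 CPM in the Sen (IR) libraries. Both went from near 0 to clear levels, 59.9 and 22.05 TPM, in all 3 Sen (IR) libraries. EHF, an epithelial ETS transcription factor, was at 0.665, 0.851 and 0.364 CPM in the Prol libraries and 26.7, 29.5 and 28.4 CPM in the Sen (IR) libraries. RGS18, a regulator of G protein signalling known from platelets, rose by 49.8-fold, and ADAMTS19, a secreted metalloproteinase, by 48.3-fold. At the other end, PTGIS, prostacyclin synthase, was at 25.5, 25.1 and 22.3 CPM in the Prol libraries and 1.46, 1.305 and 1.03 CPM in the Sen (IR) libraries, and AQP1, a water channel, at 41.1, 35.8 and 36.6 CPM in the Prol libraries and 2.16, 2.76 and 2.31 CPM in the Sen (IR) libraries. They were 18.9-fold and 15.9-fold lower, with no overlap. OLFML2A, a matrix glycoprotein, was 12.3-fold lower and CPXM1, a carboxypeptidase-like protein, 10.4-fold lower.

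For 54 genes every Prol library had at most 3 counts while each Sen (IR) library had at least 1 TPM, and 3 genes showed the reverse. Folds of such genes are lower bounds set by 3 counts in each library of the low group. The rule did not require passing the test, and PLA2G12AP1, HMGA1P8 and RF00092 were among those that did not pass. RF00092, a short RNA, overlapped between groups, with 2 counts in each Prol library and 1 to 9 in the Sen (IR) libraries. SLCO2B1, an organic anion transporter, was at 0, 0 and 0.02599 CPM in the Prol libraries and 7.84, 7.79 and 7.41 CPM in the Sen (IR) libraries, at least 75.2-fold higher. Chemokines of this kind were CCL20 (at least 166-fold higher), CXCL6 (at least 61.8-fold) and CXCL2 (at least 46.4-fold). Others were VNN3, a pantetheinase-like gene (at least 22.7-fold), HSD11B1, which regenerates active glucocorticoid (at least 7.99-fold), and MT1G, a metallothionein (at least 4.96-fold). TREM1, a myeloid receptor that amplifies inflammation, was at least 13.5-fold higher but is not one of the 54, since Sen (IR) replicate 3 was under 1 TPM. In the reverse direction SUSD3 was at least 6.65-fold lower, from 0.6402 ± 0.157 CPM in Prol.

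Gene length went with the direction of change. Split by genomic span in GENCODE's annotation, the shortest quintile of genes (median 2.60 kb) had 23.3% higher and 17.99% lower, and the longest quintile (median 160.03 kb) had 23.1% higher and 44.8% lower. The median log2 fold change fell across the quintiles, from 0.079 through 0.045, 0.016 and -0.035 to -0.15, and was -0.17 in the longest quintile without Sen (IR) replicate 3. That library itself deviated from the mean of the other Sen (IR) libraries by length of the transcript. The median deviations were 0.0098 in the shortest quintile, -0.054 in the middle quintile and 0.044 in the longest. Other properties that go with length were not tested.

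The other 4 groups were irradiated as well, and their levels were set beside those of Prol and Sen (IR) without a test. A test against Prol or Sen (IR) would use the libraries of the main comparison again. The genes named here are among those described above and were sorted after their values were seen. One set stayed high or low in all irradiated groups. TRPA1 was at 353 ± 3.19 CPM in Prol, 1928 ± 171 in Sen (IR), 1547 ± 41.9 in Sen (IR) + CCCP, 1209 ± 94.4 with acetate, 1477 ± 91.8 with mtDNA and 1207 ± 149 with both (SD, n = 3 here and below). CEMIP was at 564 ± 29.05 CPM in Prol, 37.6 ± 2.24 in Sen (IR), 47.05 ± 2.67 in Sen (IR) + CCCP, 30.2 ± 1.09 with acetate, 60.8 ± 6.37 with mtDNA and 26.5 ± 0.415 with both, so that all irradiated groups lay far below Prol. MMP1 was at 26.4 ± 0.574 CPM in Prol, 489 ± 56.3 in Sen (IR), 566 ± 13.6 in Sen (IR) + CCCP, 819.8 ± 74.9 with acetate, 711 ± 20.9 with mtDNA and 742 ± 45.5 with both.

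A second set was high in Sen (IR) alone. C3 was at 3.93 ± 0.385 CPM in Prol, 280.0 ± 21.7 in Sen (IR), 0.483 ± 0.144 in Sen (IR) + CCCP, 1.19 ± 0.288 with acetate, 0.649 ± 0.167 with mtDNA and 1.34 ± 0.0658 with both. EHF was at 0.627 ± 0.246 CPM in Prol, 28.2 ± 1.42 in Sen (IR), 0.282 ± 0.006999 in Sen (IR) + CCCP, 0.872 ± 0.0494 with acetate, 0.2003 ± 0.114 with mtDNA and 1.08 ± 0.337 with both. In the 4 groups treated with CCCP the mean of C3 was below that of Prol, and the mean of EHF lay below it in 2 groups and above it in 2. COL1A1 was lower in those groups than in Sen (IR), at 15187 ± 1319 CPM in Prol, 6798 ± 813 in Sen (IR), 877 ± 42.6 in Sen (IR) + CCCP, 727 ± 42.5 with acetate, 532 ± 23.8 with mtDNA and 620.5 ± 80.4 with both. ASNS was low in Sen (IR) and at or above the Prol level in most others, at 116 ± 2.49 CPM in Prol, 19.8 ± 1.69 in Sen (IR), 105 ± 3.95 in Sen (IR) + CCCP, 282 ± 6.55 with acetate, 252 ± 9.63 with mtDNA and 342 ± 15.9 with both. MKI67 was at 59.1 ± 0.983 CPM in Prol, 15.3 ± 2.21 in Sen (IR), 30.4 ± 1.81 in Sen (IR) + CCCP, 3.19 ± 0.424 with acetate, 26.1 ± 2.704 with mtDNA and 4.800 ± 1.36 with both, so its level was higher in Sen (IR) + CCCP than in Sen (IR) and lowest in both groups given acetate.

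**Figure D5:**
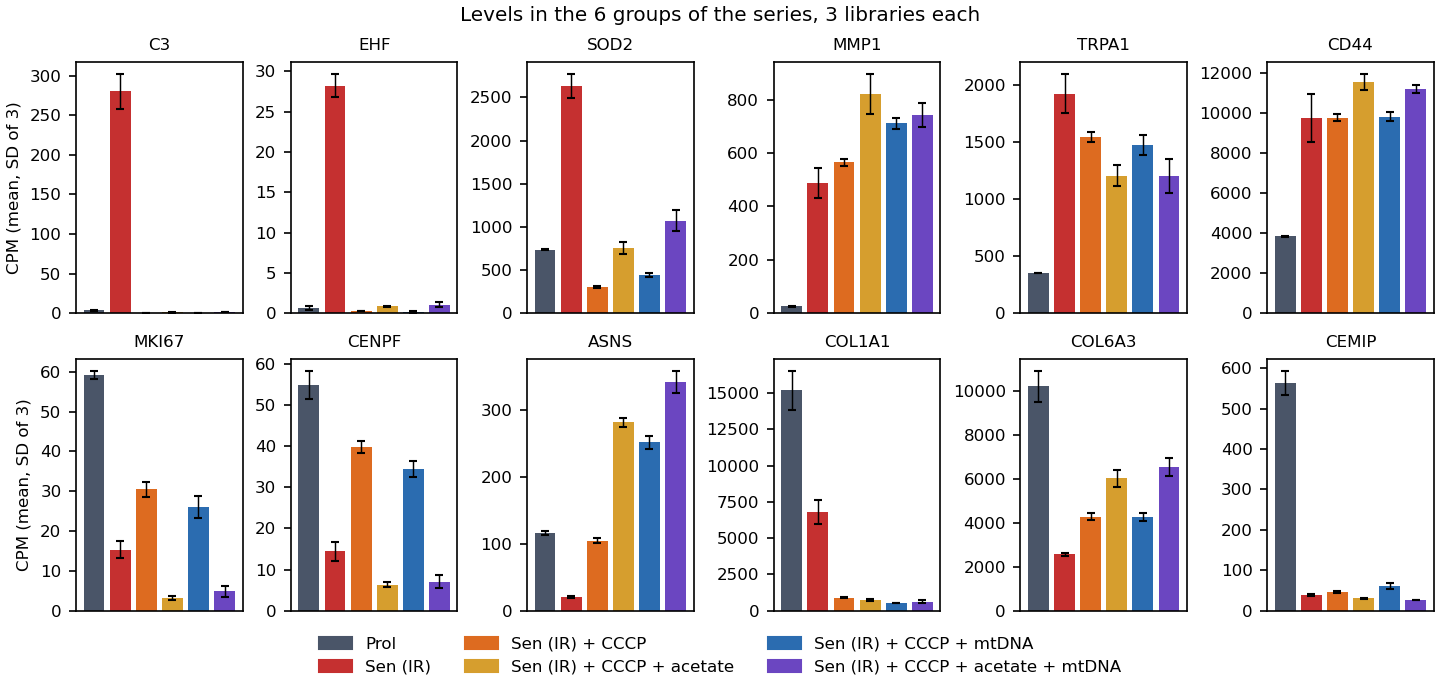
Mean CPM (y axis, bars start at 0, error bars SD of 3 libraries) of 12 genes in the 6 groups of the series, 1 panel per gene. TRPA1 is above and CEMIP below the Prol level in all irradiated groups, C3 and EHF are high in Sen (IR) alone, and COL1A1 is lower in the CCCP groups than in Sen (IR).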

How the data were processed

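RNA-seq libraries of IMR90 fibroblasts were grouped by their labels, 3 Prol and 3 Sen (IR) among 18 libraries. Reads were 2x150 bp pairs of polyadenylated RNA. The authors used Trimmomatic 0.36 for trimming, STAR 2.5.2b for alignment to GRCh38 and featureCounts of Subread 1.5.2 for counting reads that map once to the exons of a gene, and the authors deposited the resulting counts with no normalization. Whether the counting used strand is not given for these libraries, so overlapping genes on opposite strands can share reads. The authors also deposited TPM, which are scaled for gene length and library size and were used for levels between genes. The ratio of TPM between groups runs 0.080 above the fitted log2 fold change in median. Of 57500 genes, 485 carry no symbol.

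The counts of all 18 libraries were fitted with edgeR 4.0.16 (R 4.3.3) by quasi-likelihood, with a mean for each of 6 groups, TMM scaling, filterByExpr by group and no replicate block, and Sen (IR) was contrasted with Prol. Adjusted p-values follow Benjamini and Hochberg over the 16994 genes tested, with a threshold of 0.05. The study's methods name DESeq2, which was run as an alternative (DESeq2 1.42.0), since the quasi-likelihood test was preferred for raw counts with 3 libraries a group. CPM use the TMM-scaled library sizes. Precision rests on 28434566 to 46224280 counts per library, and bounds set by 3 counts cover counting error only. GENCODE 44 gave positions and spans for 16812 of the genes tested, and RefSeq gave the promoter windows.

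The comparison, the gene lists and the named genes were chosen with earlier results of these data known. Named were the 15 largest rises and falls outside the secreted factors with a mean of at least 1 TPM in the higher group, the 5 largest rises and falls in CPM, the members of each list with the largest changes, in a key role or moving against the list, genes at the floor of 3 counts, label genes, and runs of gene families. The 52 lists hold 925 tested genes and are described by counts and medians. The alternatives were other scaling, tests, filters, thresholds and libraries, a replicate block, and promoter letters on 1 strand. On simulated counts for this comparison, with 16994 genes, edgeR recovered 98 of 100 genes changed by a log2 fold change of 1 and 100 of 100 changed by 2, with 9 false calls, and DESeq2 recovered 100 and 100 with 17 false calls. The simulation left out the lowest levels, changed far fewer genes than were called in the data, and used the spread that the fit had estimated. It does not measure recovery of low genes or under changes this broad. The authors' own comparison columns, genes of the sex chromosomes that mark a person and several further genes are not reported here.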

Additional observations from a re-analysis of the deposited data

How the results depend on the processing

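Under every alternative that refitted the counts, 0 genes called in the main fit were called in the opposite direction. Among 16994 genes tested, 4539 were higher and 5089 lower. DESeq2's size factors gave 4643 and 5002, DESeq2's Wald test 4504 and 4785, no filter on low counts 4284 and 5211, and the 6 libraries alone 4547 and 4447. Leaving out 1 library at a time gave 3945 to 4505 higher and 4766 to 5104 lower. The study's rule (DESeq2, an unadjusted p of 0.05 and a log2 change of over 0.5 either way) gave 3016 higher and 2693 lower in place of all 4 counts. With at least 10 counts in every library of the series, fewer genes were tested and 478 were higher and 580 lower by 2-fold, against 1247 and 968. A test against a 2-fold change (glmTreat) left 497 and 393. Of 925 distinct list genes 693 passed the threshold. With the replicate number as a block, 4539 genes were higher and 5105 lower, of which 4474 and 5034 were called without the block. The deviations of same-numbered libraries correlated by 0.0061, -0.0048 and 0.010, so they showed no shared deviation over all genes. These values cannot tell whether same-numbered libraries were made together. Counts of members in small lists move with 1 library, as given beside the replication, end-joining, collagen, interferon, DNA sensing, MHC class I and lysosomal lists. With promoter letters on the forward strand only, TTTGAA was in 59.1% of spindle windows and 5.72% of all, and E2F letters in 22.6% of replication windows and 2.90% of all.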

Other observations

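Runs of related genes showed shared and split directions, given as values. Simple epithelial keratins fell, with log2 fold changes of -1.58 for KRT8 and -1.46 for KRT18, neighbours on chromosome 12, and -1.74 for KRT19 on chromosome 17. KRT18 was at 76.3, 81.3 and 74.9 CPM in the Prol libraries and 28.7, 30.9 and 24.8 CPM in the Sen (IR) libraries, with no overlap. Among the clade B serpins, inhibitors of intracellular proteases, the chromosome 18 members SERPINB2 (3.37) and SERPINB8 (0.57) rose, and SERPINB9 on chromosome 6, which inhibits granzyme B, fell (-1.44). In the HOXB cluster HOXB8 rose (1.68) while HOXB4 (-0.86) and HOXB3 (-0.57) fell.

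Several further families were picked after their values were seen. Metallothioneins, which bind zinc and copper, rose, with MT1X (0.96), MT1E (0.25) and MT2A (0.44), and as close copies they can share reads. The secreted protease inhibitors of the cystatin family CST4 (4.01), CST1 (3.61) and CST3 (0.43) rose. CST4 was at 0.156, 0 and 0.05197 CPM in the Prol libraries and 1.27, 1.305 and 0.792 CPM in the Sen (IR) libraries, and CST1 at 0.117, 0 and 0.182 CPM in the Prol libraries and 1.17, 1.77 and 1.21 CPM in the Sen (IR) libraries. These 2 genes are near-identical paralogues and their split is uncertain. The vanins, pantetheinases that yield cysteamine, rose, with VNN1 at 1.65 and VNN2 at 3.56. AKR1B1, aldose reductase, rose by 3.64-fold.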
